A study of Mus musculus with 12 samples.

Results

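The hypothalamus of female mice raised in small litters was compared with that of control females, across all measured genes. The comparison rests on 6 of the 12 arrays of the study, chosen by their labels: 3 small-litter females and 3 control females, each mouse on an array of its own. All mice carried the strain label FVB/NJ-Jax, an inbred line, and were 180 days old, and no transgene, deletion or drug is named for any group. The remaining 6 arrays hold 3 small-litter males and 3 control males of the same strain and age. The labels number the mice as biological replicates, but the sources used here do not give litter sizes, dams or littermates. The p-values rest on the spread between mice within groups over all 12 arrays, males included. They cannot account for mice that shared a litter.

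Pups raised in a small litter have more milk each, and the small litter is used in rodents as a model of overnutrition before weaning. The hypothalamus holds the neurons that set food intake, energy use, growth, stress hormone release and reproduction. In the arcuate nucleus, neurons making neuropeptide Y promote feeding and neurons making proopiomelanocortin restrain it, acting through melanocortin receptors and under control of leptin and insulin. The lateral hypothalamus makes melanin-concentrating hormone and orexin, and magnocellular neurons make vasopressin and oxytocin.

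A level below is a bead intensity after background correction and quantile normalization of all 12 arrays together, on a log2 scale. A change is the mean level in small-litter females minus that in control females, with the standard error of a limma model fitted over the 12 arrays (n = 3 mice per group throughout). Levels of different genes come from different probes and were not set against each other. The median raw signal was 112 to 118 on the arrays of small-litter females and 121 to 127 on those of control females, without overlap; the part of this difference in the results was not tested. The 6 female arrays detected 39.7% to 41.8% of the 45281 probes. All 6 female arrays and 0 of 6 male arrays detected the X-linked non-coding RNA Xist. The Y-linked genes Kdm5d and Eif2s3y were detected on 0 of 6 female arrays. Uty, also Y-linked, was detected on 1 of 6 female arrays. Hypothalamic peptide transcripts were bright on every female array: the level of Pmch lay between 13.71 and 14.01, that of Hcrt between 10.98 and 11.52, that of Oxt between 10.35 and 11.98 and that of Avp between 11.01 and 12.27.

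No gene passed the threshold between small-litter and control females: 0 of 13547 features had an adjusted p under 0.05 (0% called), by limma with Benjamini-Hochberg adjustment, and 453 had an unadjusted p under 0.05 (3.34% called). The smallest adjusted p was 0.9996. Chance alone would give an unadjusted limma p under 0.05 for 677 features, more than were found. The changes were small: the 5th and 95th percentiles over features were -0.24 and 0.23, the median was 0.0022, 2 features differed by more than 1 on the log2 scale and 61 by more than 0.5, of which 22 were higher and 39 lower in small-litter females. The levels of the 3 small-litter mice and the 3 control mice did not overlap for 1299 features (9.59% called). Of these, 695 were higher in small-litter females (5.13% called) and 604 lower (4.46% called). Random order of 3 against 3 mice would separate a similar share, so this count is a description. With median scaling in place of quantile normalization the split was 251 higher and 1378 lower, so the side on which a small shift lay depended on how array brightness was equalised. Sizes depended on the background correction: without it, the changes of 84 of the 138 genes named or listed here shrank by more than 1.5 times, by 1.51 to 3.63 times, and nearly the same values came from the authors' processed data. Cdh15, for example, was at -0.34, Pik3cd at 0.19 and Gm5820 at 0.18 without it, against -0.98, 0.59 and 0.62 with it. The genes that shrank had mean levels under 7.5. Where every array of a group lay under the detection limit, only a bound is given for the fold. Such a bound holds for the background-corrected means of these mice and leaves out their sampling error. Without the correction the log2 changes of Lbp, Gtf2b, Frmd8 and Zfp329 were -0.23, 0.14, 0.16 and -0.10. Those folds lie under the female bounds given below.

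What the female comparison could bound was also measured, with standard errors that also use the spread between male mice. The 95% interval of the change, unadjusted for the number of features, lay within a 2-fold difference in either direction for 99.3% of the features (13457) and within a 1.41-fold difference for 77.5% (10495). With features split by mean level into 4 sets of equal size, the standard error had a median of 0.17 in the dimmest set and 0.11 in the brightest. The unadjusted p was under 0.05 for 231 features of the dimmest set, for 133 and 68 of the middle sets, and for 21 of the brightest. Each array resembled the arrays of its own group about as much as those of the other group: the mean correlation over features was 0.9935 to 0.9941 with the other arrays of the same group and 0.9929 to 0.9936 with control arrays for small-litter females, and 0.9922 to 0.9927 and 0.9929 to 0.9936 for control females. These correlations share the probes and the normalization and are given as a description.

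**Figure D1:**
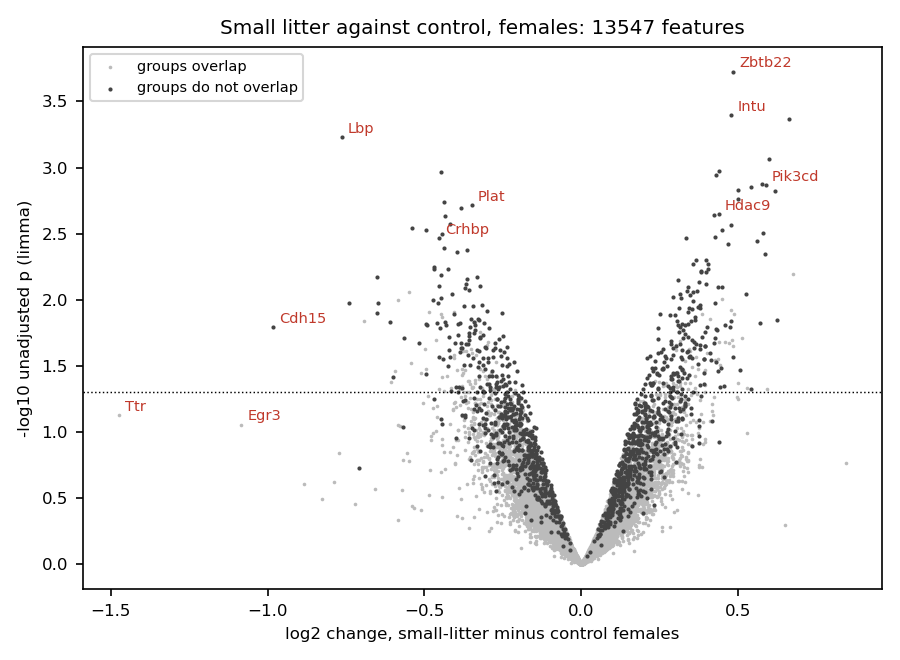
Each point is one of 13547 features, with the log2 change (small-litter minus control females, n = 3 each) on the horizontal axis and the negative log10 of the unadjusted limma p on the vertical axis, and the dotted line marks an unadjusted p of 0.05. Dark points are the 1299 features whose groups do not overlap; Ttr and Egr3 have the largest changes, -1.47 and -1.08, but overlapping groups.

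On the higher side, the named genes with non-overlapping groups and the lowest p included Zbtb22, Intu, Hdac9 and Pik3cd, and none passed the threshold. Zbtb22, which encodes a zinc finger protein with a BTB domain, had levels of 7.72, 7.76 and 7.63 in small-litter females, against 7.15, 7.25 and 7.26 in control females, a change of 0.48 ± 0.094. All 3 small-litter mice lay above all 3 controls by more than the spread of either group. Intu encodes a planar cell polarity effector needed for primary cilia, and its levels were 6.09, 6.05 and 6.09 in small-litter females, against 5.48, 5.75 and 5.57 in control females (0.48 ± 0.10). Hdac9, a class IIa histone deacetylase, was at 8.22, 8.08 and 7.91 in small-litter females, against 7.75, 7.42 and 7.73 in control females (0.44 ± 0.12). Pik3cd, the delta catalytic subunit of phosphoinositide 3-kinase, was at 5.49, 5.85 and 5.69 in small-litter females, against 5.20, 5.10 and 4.97 in control females (0.59 ± 0.14). A second probe of Pik3cd, close to the background, differed by 0.14 with overlapping groups. Lpxn, a paxillin-like adaptor of focal adhesions, was at 5.44, 5.44 and 5.24 in small-litter and 4.89, 4.92 and 5.03 in control females. The general transcription factor gene Gtf2b, which encodes TFIIB, was at 5.34, 5.29 and 5.27 in small-litter and 4.76, 4.69 and 4.95 in control females. It was detected in every small-litter female and on none of the other 9 arrays, so the probe passed the filter on detection through these mice alone. It was at least 1.21-fold higher than in control females; for this bound a control array counts at its lowest detected level wherever the probe's own level lies under it. In this set every small-litter mouse was above every control, which the rule of choice requires.

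Further genes higher in small-litter females by the same rule were the cyclin-dependent kinase inhibitor gene Cdkn2c (0.45 ± 0.12), the biotinidase gene Btd (0.43 ± 0.12), the transporter family member Mfsd4a (0.48 ± 0.13), Fndc4, which encodes a secreted fibronectin type III protein (0.58 ± 0.16), 2810029C07Rik (0.42 ± 0.11) and Gm5820 (0.62 ± 0.15). Gm5820 was the only gene to pass in any of the fits that left out an array: without control 1 its change was 0.85 (adjusted p = 0.0241, limma), and control 1 had a level of 5.33 against 4.68 and 4.61 in the other controls. The largest changes with non-overlapping groups added Lpcat1, an acyltransferase of lung and membrane phospholipid, at 6.62, 6.46 and 6.83 in small-litter females, against 6.10, 6.03 and 6.21 in control females (0.52 ± 0.17). They also added Frmd8, Mmachc, which processes vitamin B12, at 0.57 ± 0.20, Aasdhppt, and Nudt1, which hydrolyses oxidised nucleotides, at 0.54 ± 0.25. Frmd8 was at least 1.26-fold and Aasdhppt at least 1.11-fold higher, since neither was detected in a control female. Among control females, Cdkn2c, Lpxn, Gm5820 and Mmachc were detected in 1 of 3 and Pik3cd and Fndc4 in 2 of 3. For all of these genes the adjusted p was 0.9996 (limma).

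On the lower side the corresponding genes included Lbp, Plat, Crhbp and Vegfc, again none past the threshold. Lbp, which encodes lipopolysaccharide binding protein, had levels of 4.59, 4.99 and 4.91 in small-litter females, against 5.84, 5.51 and 5.43 in control females. Every control and no small-litter female had the gene detected. After background correction it was at least 1.43-fold lower in the mean, and without the correction its change was -0.23. Plat, the tissue plasminogen activator gene, was at 8.69, 8.73 and 8.76 in small-litter females, against 9.15, 8.99 and 9.09 in control females (-0.35 ± 0.090), well above background in all 6 mice. Crhbp encodes the protein that binds and buffers corticotropin-releasing hormone, and it was at 9.41, 9.44 and 9.69 in small-litter females, against 9.91, 9.76 and 10.23 in control females (-0.45 ± 0.13). Vegfc, a growth factor of lymphatic vessels, was at 6.26, 6.45 and 6.19 in small-litter females, against 6.70, 6.62 and 6.67 in control females (-0.36 ± 0.10). The small-litter mice lay below every control for each of these genes. Cetn4, a centrin, was at 8.95, 8.93 and 8.84 in small-litter and 9.34, 9.51 and 9.18 in control females. Vta1, a component of the machinery that forms multivesicular bodies, was at 5.47, 5.49 and 5.30 in small-litter and 5.83, 5.73 and 6.01 in control females.

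The rest of the lower genes with the smallest p were Fancl, a ubiquitin ligase of the Fanconi anaemia pathway (-0.44 ± 0.12), Inka2 (-0.40 ± 0.11), the theta globin gene Hbq1a (-0.47 ± 0.14), Mroh7 (-0.47 ± 0.14), the ubiquitin ligase gene Trim56 (-0.42 ± 0.13) and Hrk, which encodes a pro-apoptotic BH3-only protein (-0.45 ± 0.14). For Fancl, 2 further probes differed by 0.12 and -0.027 with overlapping groups, and for Inka2 further probes differed by 0.018 and -0.16. By size, the lower genes added Cdh15, which encodes M-cadherin, at 4.81, 5.32 and 5.05 in small-litter females, against 5.98 to 6.14 in control females (-0.98 ± 0.35), and Bmp4, a bone morphogenetic protein, at 5.26, 5.29 and 5.19 in small-litter females, against 5.77, 5.82 and 6.37 in control females (-0.74 ± 0.25). Cdh15 was detected in 3 of 3 controls and 1 of 3 small-litter females. Also among them were the neuronal adhesion gene Icam5 (-0.65 ± 0.22), Aox3, Scrn2 (-0.52 ± 0.20), the ephrin gene Efnb2 (-0.49 ± 0.21) and Kl (-0.60 ± 0.26). Aox3 was at least 1.16-fold lower, as no small-litter female had it detected. Among small-litter females, Hrk and Inka2 were detected in 1 of 3 and Icam5, Scrn2 and Trim56 in 2 of 3. Across all genes with more than 1 probe, 57.1% of the 6157 further probes had the sign of the probe that stood for the gene, and 64.1% of the 587 further probes of genes whose groups did not overlap.

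**Figure D2:**
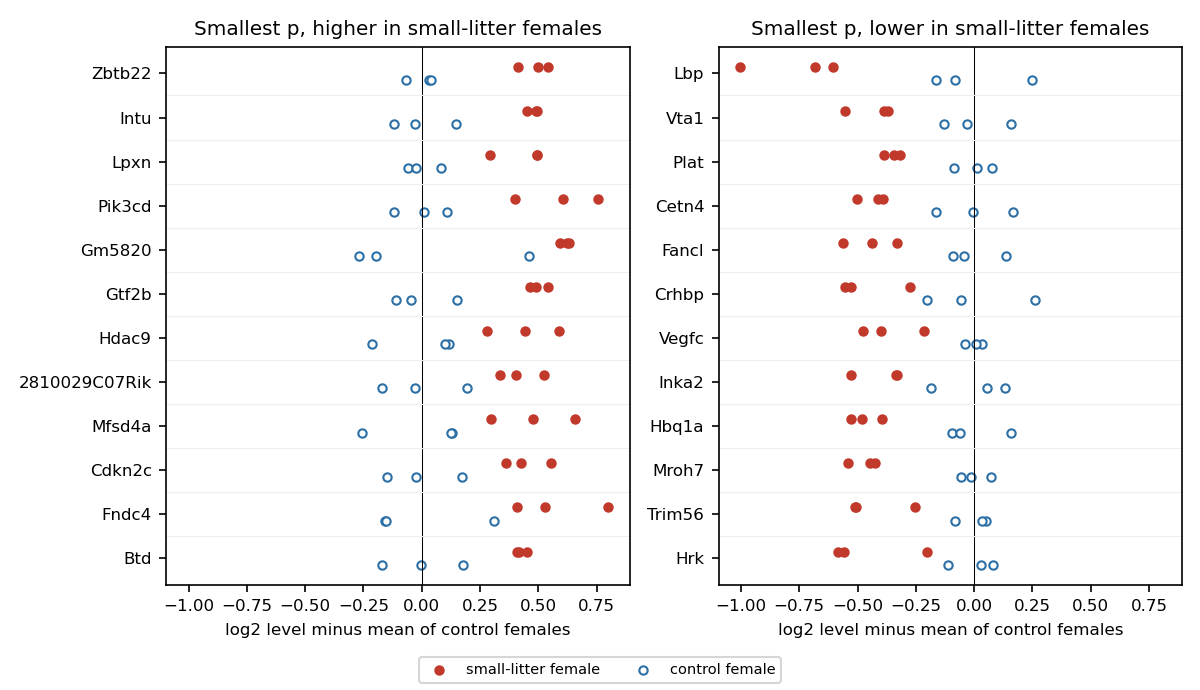
Log2 level of each mouse minus the mean of the 3 control females, for the 12 named genes with the smallest p in each direction among those whose groups do not overlap. Filled points are small-litter females, drawn above the open points of control females; the red and blue points are apart for every gene because the rule asked for it, and none of the 24 genes passed the adjusted threshold. Points of Lbp in small-litter and of Gtf2b in control females lie under the detection limit.

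For the genes of energy balance, the question was whether overnutrition in early life left a difference in adult females. None passed the threshold. Npy was at 9.04, 9.08 and 9.47 in small-litter females, against 9.22, 9.77 and 9.23 in control females, a change of -0.21 ± 0.35 with a 95% interval of -0.97 to 0.55. Pomc was at 6.23, 6.50 and 7.18 in small-litter females, against 6.98, 7.28 and 6.69 in control females (-0.35 ± 0.27, interval -0.94 to 0.24). The groups overlapped for both, and small-litter female 3 lay within the range of the controls. Cartpt, which encodes a satiety peptide, was at 11.75, 11.52 and 11.74 in small-litter females, against 11.51, 11.46 and 12.10 in control females (-0.019 ± 0.19). The melanocortin receptor genes Mc3r and Mc4r differed by -0.072 (interval -0.40 to 0.25) and -0.24 (-0.73 to 0.25). Mc4r was detected in 1 of 3 small-litter and 3 of 3 control females, with levels of 4.63, 5.56 and 5.12 in small-litter females, against 5.37, 5.31 and 5.34 in control females. The ghrelin receptor gene Ghsr was at 0.088 ± 0.16. Because whole tissue was measured, fewer cells of a type and less RNA per cell cannot be told apart for any of these genes.

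In the lateral hypothalamus, Pmch, the precursor of melanin-concentrating hormone, was lower in every small-litter mouse, at 13.71, 13.80 and 13.90 in small-litter females, against 14.01, 13.96 and 13.99 in control females (-0.18 ± 0.10, interval -0.40 to 0.038). Its receptor gene Mchr1 was also lower in every small-litter mouse, at 5.87, 5.78 and 5.70 in small-litter females, against 6.04, 6.38 and 5.93 in control females (-0.33 ± 0.13), as was the neurotensin gene Nts, at 7.78, 7.56 and 7.77 in small-litter females, against 8.02, 7.87 and 7.99 in control females (-0.25 ± 0.13). The unadjusted p of these genes was 0.0969 for Pmch, 0.024 for Mchr1 and 0.0736 for Nts, and none passed the adjusted threshold by limma. Hcrt, the orexin precursor, was at 10.98, 11.07 and 11.39 in small-litter females, against 11.43, 11.52 and 11.15 in control females (-0.22 ± 0.15), and Gal, the galanin precursor, at 9.78, 9.88 and 10.17 in small-litter females, against 10.13, 10.61 and 10.09 in control females (-0.33 ± 0.21). Small-litter females 1 and 2 had the lowest values of both, and small-litter female 3 lay within the range of the controls. Of 21 measured feeding peptide genes, 5 were higher and 16 lower in small-litter females, with a median change of -0.15; over all features 50.7% were higher (6868) and the median was 0.0022. Groups did not overlap for 2 of the 21 (9.52%), near the background of 9.59%. The median of the group was -0.074 without small-litter female 1 and -0.24 without small-litter female 3. Of 22 feeding receptor genes, 10 were higher and 12 lower (median -0.043). Among them were Gpr83 at -0.21 ± 0.12 and the neuropeptide Y receptor gene Npy2r at -0.22 ± 0.14.

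Insulin and leptin signalling showed no common direction. Of 39 measured genes, 21 were higher and 18 lower, and groups did not overlap for 4 (10.3%, against 9.59% of all features). Socs3, the feedback inhibitor of leptin signalling, was at 5.31, 5.74 and 5.65 in small-litter females, against 5.78, 5.80 and 5.76 in control females (-0.21 ± 0.11). The transcription factor gene Foxo1, which insulin signalling keeps out of the nucleus, was at 6.84, 6.85 and 6.82 in small-litter females, against 7.04, 7.07 and 6.92 in control females (-0.17 ± 0.11). The insulin receptor gene Insr was at 9.16, 9.17 and 9.28 in small-litter females, against 9.04, 9.28 and 9.04 in control females, and its interval of -0.14 to 0.30 is among the narrower ones. Grb10, an imprinted adaptor that dampens insulin signalling, was at -0.20 ± 0.11 and Pik3ca, the alpha catalytic subunit of phosphoinositide 3-kinase, at -0.19 ± 0.12.

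**Figure D3:**
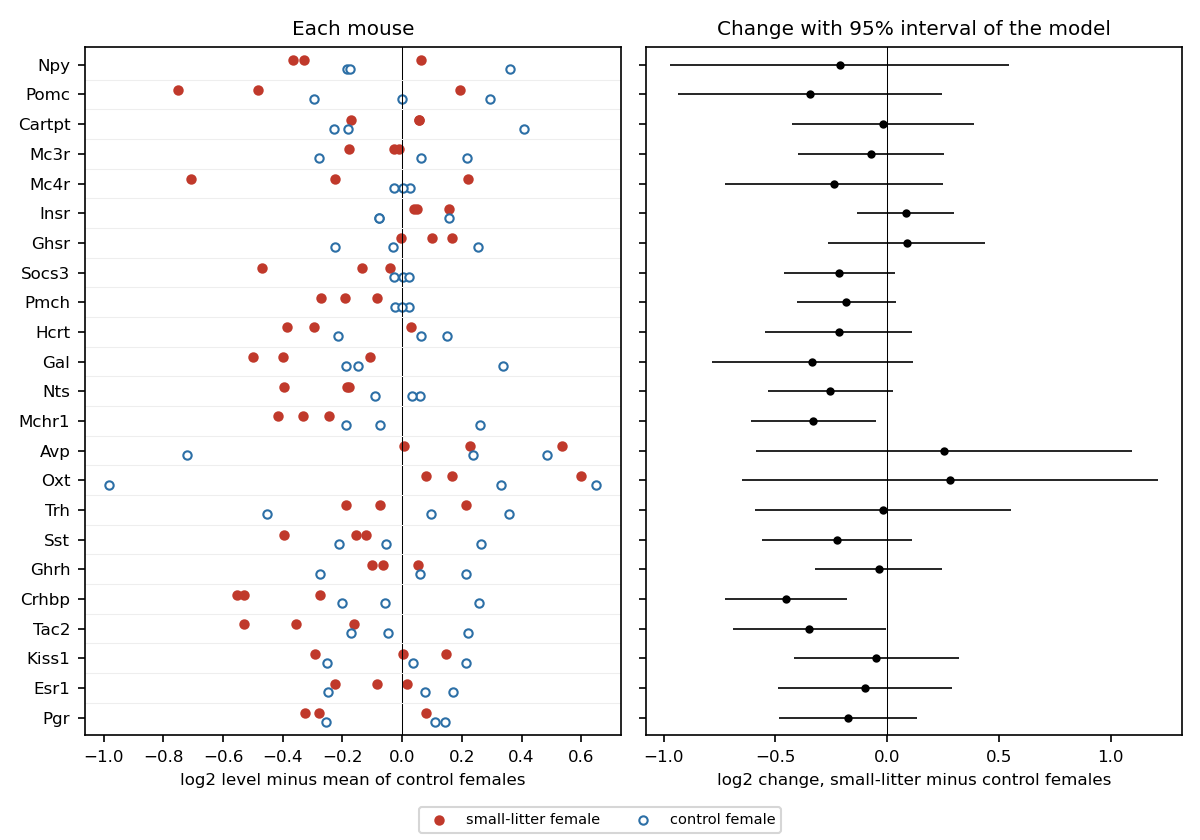
Left, log2 level of each female mouse minus the mean of the control females, with filled points for small-litter and open points for control mice; right, the log2 change with its 95% interval from the limma model over 12 arrays. The interval of Pomc runs from -0.94 to 0.24 and that of Insr from -0.14 to 0.30; control female 3 is the lowest point for Avp and Oxt.

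Neurosecretory genes control the pituitary. Of 18 measured, 5 were higher and 13 lower in small-litter females (median -0.10), and groups did not overlap for 3 (16.7%, against 9.59% of all features), Crhbp, Scgn and the granin gene Chgb. The median was -0.041 without small-litter female 2. The mean deviations, defined below, were -0.13, -0.086 and 0.098 in small-litter females, against 0.10, 0.090 and -0.075 in control females. Scgn, which encodes a calcium-binding protein of neuroendocrine cells, was at 5.38, 5.10 and 5.56 in small-litter females, against 5.86, 5.83 and 5.73 in control females (-0.46 ± 0.16). The vasopressin gene Avp was at 11.74, 11.96 and 12.27 in small-litter females, against 11.97, 12.22 and 11.01 in control females, and the oxytocin gene Oxt at 11.41, 11.93 and 11.50 in small-litter females, against 11.66, 11.98 and 10.35 in control females. Control female 3 was the lowest of the 6 mice for both, and for Trh, the thyrotropin-releasing hormone precursor, at 10.60, 10.72 and 11.01 in small-litter females, against 10.89, 11.15 and 10.34 in control females. Without that mouse the change of Avp was -0.11 and that of Oxt -0.21, against 0.26 and 0.28 with it. Sst, the somatostatin precursor, was at 12.30, 12.54 and 12.58 in small-litter females, against 12.64, 12.96 and 12.49 in control females (-0.22 ± 0.15). The growth hormone-releasing hormone gene Ghrh was at -0.037 ± 0.13 and Nr3c1, the glucocorticoid receptor gene, at 7.26, 6.37 and 6.34 in small-litter females, against 6.41, 6.36 and 6.40 in control females; small-litter female 1 alone was high for Nr3c1, and without it the change was -0.036.

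Of 10 genes of gonadal steroid action, 9 were lower in small-litter females (median -0.17), and groups did not overlap for 1 (10%, against 9.59% of all features), Nts. The median was -0.078 without small-litter female 1, -0.27 without small-litter female 3 and -0.083 without control female 2, and it was -0.060 without background correction. The mean deviations, defined below, were -0.22, -0.13 and 0.14 in small-litter females, against 0.044, 0.079 and 0.090 in control females. Small-litter females 1 and 2 were the lowest, and small-litter female 3 was the highest of all females. Among the neurosecretory genes of reproduction, Tac2, the neurokinin B precursor of kisspeptin neurons, was at 6.83, 7.01 and 7.20 in small-litter females, against 7.58, 7.32 and 7.19 in control females (-0.35 ± 0.16). A dimmer probe of Tac2 differed by 0.0056. Kiss1 itself was at 6.13, 6.56 and 6.42 in small-litter females, against 6.17, 6.63 and 6.45 in control females (-0.048 ± 0.17), with overlapping groups. Esr1, the estrogen receptor alpha gene, differed by -0.10 ± 0.18 and the progesterone receptor gene Pgr by -0.18 ± 0.14. The sources used here do not give the stage of the oestrous cycle. The prolactin gene Prl, a pituitary transcript, was spread widely in both groups, at 6.20, 4.64 and 8.60 in small-litter females, against 4.44, 7.78 and 5.27 in control females. Its range within each group exceeded 3 on the log2 scale, and the 8 pituitary and pars tuberalis genes had mean deviations of -0.27, -0.19 and 0.38 in small-litter females, against -0.21, 0.35 and -0.055 in control females.

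Markers of neighbouring brain regions differed between the mice. The mean deviation of a gene group is, for each mouse, the average over its members of the level minus the mean of the 6 females. For 29 thalamus markers it was 0.21, 0.17 and -0.11 in small-litter females, against -0.054, -0.11 and -0.10 in control females. Small-litter females 1 and 2 were high and small-litter female 3 lay with the controls, so the groups overlapped. Of the 29, 27 were higher in small-litter females (93.1%, against 50.7% of all features; median 0.21), and groups did not overlap for 4 (13.8%, against 9.59% of all features). These were Kcnc2, a fast potassium channel, at 7.59, 7.61 and 7.26 in small-litter females, against 7.23, 7.13 and 7.17 in control females, Rasgrp1 at 0.23 ± 0.11, the complexin gene Cplx1 at 0.22 ± 0.11 and Zmat4 at 0.22 ± 0.12. Without small-litter female 1 the thalamus median was 0.10, and without small-litter female 3 it was 0.30.

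Transcription factors of hypothalamic regions ran the other way. Of 23, 19 were lower in small-litter females (median -0.19), and groups did not overlap for 4 (17.4%, against 9.59% of all features), Nkx2-1, Lhx1, Dlx6 and Lhx8, the last detected in no small-litter female. Nkx2-1, which specifies the ventral hypothalamus, was at 8.02, 8.21 and 8.44 in small-litter females, against 8.45, 8.69 and 8.51 in control females (-0.32 ± 0.13). Lhx1, a factor of the suprachiasmatic nucleus, was at 8.56, 8.53 and 8.64 in small-litter females, against 8.69, 8.82 and 8.96 in control females (-0.25 ± 0.14), but a dimmer probe of the gene differed by 0.18. Fezf1, a factor of the ventromedial nucleus, was at 8.72, 9.02 and 9.19 in small-litter females, against 9.31, 9.48 and 9.19 in control females (-0.35 ± 0.14), where small-litter female 3 and control female 3 met. The mean deviations of the whole group were -0.17, -0.12 and 0.059 in small-litter females, against 0.11, 0.054 and 0.067 in control females. Small-litter females 1 and 2, the mice high in thalamus markers, were the lowest here, and they were also the lowest for the feeding peptides, at -0.17, -0.072 and 0.068 in the small-litter and 0.090, 0.11 and -0.031 in the control females. Small-litter females 1 and 2 had the lowest mean deviations for the neurosecretory, gonadal steroid and imprinted gene groups too. The part of the regional markers in the values of these groups and of the peptides was not tested. The median of the transcription factors was -0.10 without small-litter female 1 and -0.12 without control female 3, and it was -0.086 without background correction. Markers of cortex and hippocampus (median -0.033, 7 of 16 higher) had groups that overlapped for every member.

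**Figure D4:**
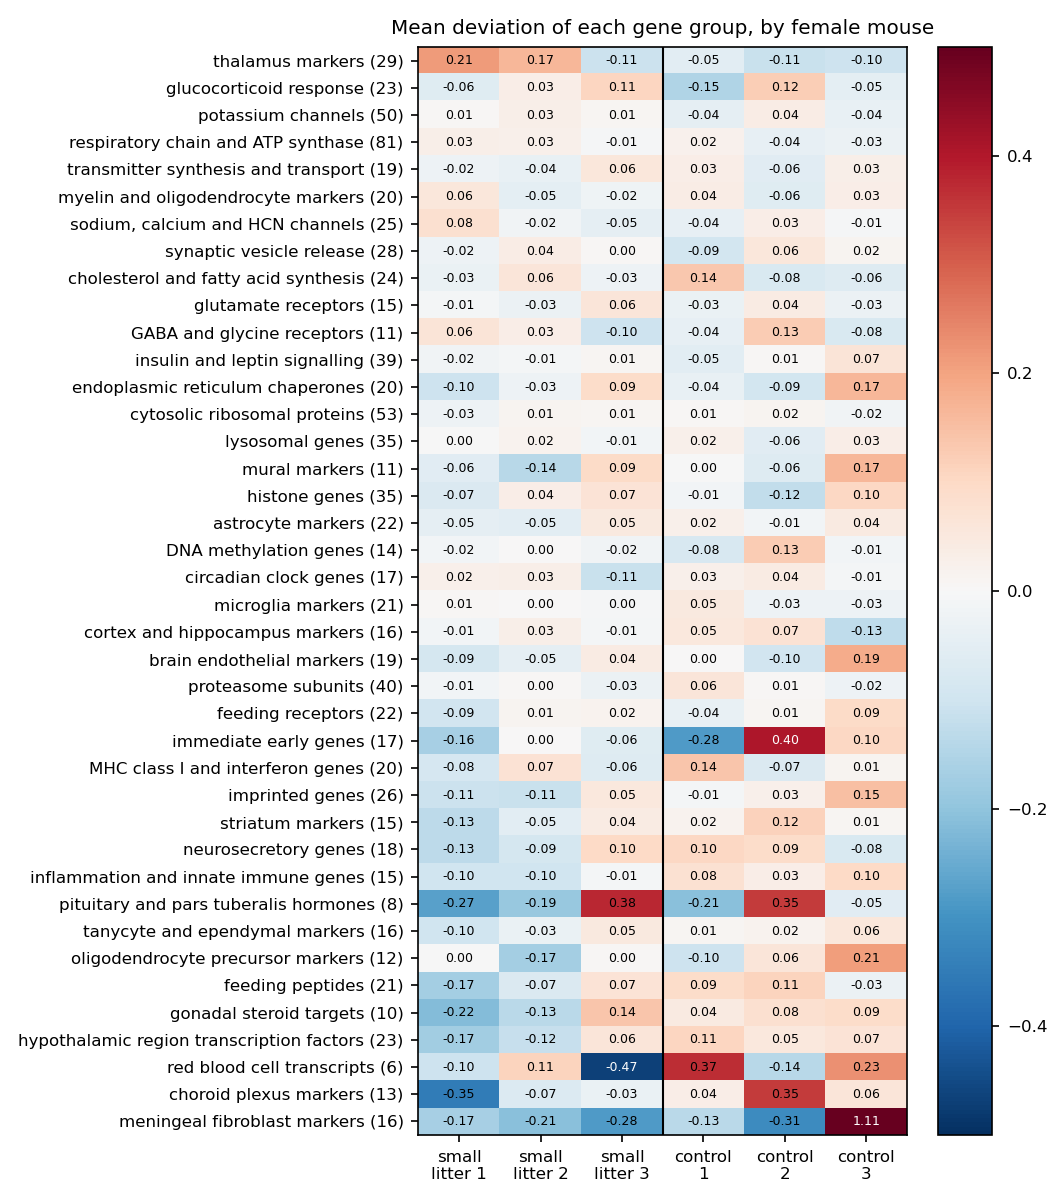
Mean log2 deviation from the 6-female mean for 40 groups of genes (rows, with the number of measured members, ordered by median change) in each of the 6 female mice (columns, small-litter mice left of the line). Small-litter females 1 and 2 are high for thalamus markers, control female 3 stands at 1.11 for meningeal markers, beyond the colour limit, and control female 2 at 0.40 for immediate early genes.

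Cells around and beyond the neurons were traced by their markers. Of 16 meningeal fibroblast markers, 15 had the lower mean in small-litter females, with a median change of -0.44, but the mean deviations were -0.17, -0.21 and -0.28 in small-litter females, against -0.13, -0.31 and 1.11 in control females. Control female 3 alone was high, and the median was -0.73 without control female 2 and -0.0070 without control female 3. Ogn, which encodes osteoglycin, showed the same mouse, at 5.76, 5.64 and 5.32 in small-litter females, against 5.61, 5.44 and 8.14 in control females, and so did the meningeal transporter gene Slc13a4, at 6.94, 6.74 and 7.02 in small-litter females, against 6.54, 6.73 and 9.19 in control females. Of the 16, groups did not overlap for 1, Slc22a6 (6.25%, against 9.59% of all features). It was detected in no small-litter female and in 1 of 3 control females, with control levels of 4.97, 4.95 and 6.68. The 13 choroid plexus markers included 5 whose groups did not overlap (38.5%, against 9.59% of all features), all lower in small-litter females. They were Kl, which encodes klotho, Ecrg4, the short-chain collagen genes Col8a1 and Col8a2, and the homeobox gene Msx1. Kl was at 5.30, 5.62 and 5.65 in small-litter females, against 5.69, 6.48 and 6.19 in control females (-0.60 ± 0.26) and Ecrg4 at 5.50, 5.14 and 5.27 in small-litter females, against 5.74, 5.77 and 5.81 in control females (-0.47 ± 0.22). For Col8a1, at -0.31 ± 0.13, a dimmer probe differed by 0.098. Ttr, the transthyretin gene and the most abundant choroid plexus transcript, was at 7.22, 8.94 and 8.83 in small-litter females, against 9.93, 11.54 and 7.95 in control females (-1.47 ± 0.76, interval -3.11 to 0.17). The range of Ttr within each group exceeded 1.7, and the groups overlapped. The mean deviations of the choroid plexus list were -0.35, -0.067 and -0.034 in small-litter females, against 0.035, 0.35 and 0.062 in control females, without overlap between the groups, as in 2 of the 40 gene groups. This separation is a description, since 9.59% of all features also separated, a share similar to that of random order. None of the members of the list passed the threshold. The median of the list was -0.27; it was -0.18 without small-litter female 1 and -0.17 without control female 2, and -0.10 without background correction.

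Blood transcripts were lower in the mean for 6 of 6 genes (median -0.26), with groups that overlapped for each. That median was -0.14 without small-litter female 3 and -0.40 without control female 2. The beta globin genes Hbb-bt and Hbb-bs, whose near-identical copies the probes may not tell apart, were at 13.43, 13.56 and 13.10 in small-litter and 13.76, 13.38 and 13.76 in control females for Hbb-bt and 13.20, 13.54 and 12.99 in small-litter and 13.67, 13.27 and 13.56 in control females for Hbb-bs. Small-litter female 3 was the lowest and control females 1 and 3 were the highest. Endothelial markers had a median of -0.038 (13 of 19 lower) and mural markers one of -0.0058 (6 of 11 lower). Slco1a4, an organic anion transporter of the blood-brain barrier, was at 5.04, 4.98 and 4.65 in small-litter females, against 5.34, 5.25 and 5.13 in control females (-0.35 ± 0.14), while the tight junction gene Cldn5 was at 0.28 ± 0.18. Slco1a4 was detected in 1 of 3 small-litter females, and its change was -0.098 without background correction.

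Microglia markers had a median of -0.026 and deviations between -0.027 and 0.048 in all 6 mice, the narrowest spread of the cell type groups. Tyrobp, a microglial signalling adaptor, was at 6.97, 7.01 and 6.81 in small-litter females, against 6.68, 6.74 and 6.70 in control females (0.22 ± 0.12), and the complement gene C1qa at -0.12 ± 0.11. Astrocyte markers (median -0.016) had groups that overlapped for all but Id3, at 6.83, 6.69 and 6.86 in small-litter females, against 6.94, 7.34 and 7.36 in control females (-0.42 ± 0.16). Gfap, the intermediate filament of reactive astrocytes, differed by -0.11 ± 0.15 with an interval of -0.44 to 0.22. Of 12 oligodendrocyte precursor markers, 8 were lower (median -0.15). That median was -0.24 without control female 1 and -0.030 without control female 3, and -0.067 without background correction. The groups did not overlap for 2 of the 12 (16.7%, against 9.59% of all features). These were Ptprz1, a receptor phosphatase, at 9.91, 9.51 and 9.94 in small-litter females, against 10.01, 10.05 and 10.11 in control females, and Pdgfra, the platelet-derived growth factor receptor gene that marks these cells, at 9.52, 9.53 and 9.63 in small-litter females, against 9.71, 9.68 and 9.73 in control females. Myelin genes had a median of 0.028, which median scaling turned to -0.043. Of 15 inflammation genes, 10 were lower (median -0.10), and the mean deviations, at -0.10, -0.10 and -0.011 in small-litter females, against 0.078, 0.035 and 0.10 in control females, did not overlap, as in 2 of the 40 gene groups. This too is a description, since 9.59% of all features also separated. Groups did not overlap for 2 of the 15 members (13.3%). The median of the inflammation genes was -0.055 without small-litter female 1, -0.16 without control female 2 and -0.060 without control female 3, and -0.033 without background correction. Lbp, detected in no small-litter female, had the largest change of the group, and its part in the mean deviations was not tested. Besides Lbp the group included Vcam1, an endothelial adhesion molecule, at 9.24, 9.31 and 9.26 in small-litter females, against 9.43, 9.50 and 9.47 in control females, and Tgfb1 at -0.47 ± 0.24. Of 20 class I histocompatibility and interferon genes, 15 were lower (median -0.076), with groups that overlapped for each. Of 16 tanycyte and ependymal markers, 5 were higher and 11 lower (median -0.12, and -0.065 without background correction). Groups did not overlap for 3 (18.8%, against 9.59% of all features), Foxj1 on the higher side and Rarres2 and Mia on the lower. Foxj1, the master factor of motile cilia, was at 5.11, 5.65 and 5.39 in small-litter females, against 4.95, 4.99 and 4.79 in control females (0.47 ± 0.17) and Rarres2, the chemerin gene, at 8.05, 8.09 and 8.25 in small-litter females, against 8.49, 8.46 and 8.35 in control females (-0.30 ± 0.13). The 2 further probes of Rarres2 differed by -0.016 and 0.027. Foxj1 was detected in 1 of 3 control females, and its change was 0.14 without background correction.

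Groups of neuronal signalling genes had medians within 0.05 of 0. For 50 potassium channel genes the median was 0.044, for 25 sodium, calcium and HCN channel genes 0.028, for 15 glutamate receptor genes 0.017, for 11 GABA and glycine receptor genes 0.012 and for 28 vesicle release genes 0.022. Of the 23 gene groups with a median under 0.05 in size, 21 turned sign when single females were left out. Each of these medians was below 0 with median scaling, where the median of all features was -0.066. In the order given, groups did not overlap for 8%, 4%, 13.3%, 9.09% and 7.14% of the members, against 9.59% of all features. Among these members were Gabbr2 and Grik5, and also Kcnc2 and Cplx1, given above with the thalamus markers. Gabbr2, a subunit of the GABA-B receptor, was at 6.50, 6.50 and 6.54 in small-litter females, against 6.18, 6.32 and 6.01 in control females (0.34 ± 0.14). Grik5, a kainate receptor subunit, was at 7.31, 7.07 and 7.19 in small-litter females, against 7.45, 7.44 and 7.38 in control females (-0.23 ± 0.12). Gad1, which makes GABA, was at 12.58, 12.50 and 12.77 in small-litter females, against 12.96, 13.04 and 12.67 in control females (-0.27 ± 0.11), and its second probe differed by -0.087. Scn4b, a sodium channel beta subunit, was at 9.62, 9.37 and 9.02 in small-litter females, against 8.86, 8.68 and 9.16 in control females (0.44 ± 0.18), high in small-litter females 1 and 2.

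Among groups of metabolism and housekeeping, respiratory chain and ATP synthase genes had the highest share of members on the higher side after the thalamus markers, 56 of 81 (69.1%, against 50.7% of all features). The shift was small, with a median of 0.038 that turned to -0.032 with median scaling. Groups did not overlap for 12 members (14.8%, against 9.59% of all features), 11 of them higher (5.13% of all features). Ndufs6, an accessory subunit of complex I, was at 12.81, 12.76 and 12.80 in small-litter females, against 12.54, 12.54 and 12.66 in control females (0.21 ± 0.084), but a dimmer probe differed by -0.11. Ndufa5 and Ndufb10, also of complex I, were at 0.17 ± 0.083 and 0.15 ± 0.083, each with a second probe on the same side. Uqcr11, of complex III, was at 12.84, 12.82 and 12.82 in small-litter females, against 12.67, 12.69 and 12.70 in control females (0.14 ± 0.082), a difference larger than the spread of either group. The 53 ribosomal protein genes (median -0.0030), 40 proteasome genes (-0.040), 35 lysosomal genes (-0.0043) and 20 endoplasmic reticulum chaperone genes (-0.0011) lay close to 0. Of 24 cholesterol and fatty acid synthesis genes, 13 were higher (median 0.019), with Hsd17b7 at 0.30 ± 0.14 and the desaturase gene Fads2 at 8.57, 8.56 and 8.56 in small-litter females, against 8.69, 8.66 and 8.68 in control females.

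Chromatin genes were examined because early nutrition is studied for lasting epigenetic marks, which these arrays do not measure. Of 35 histone genes, 15 were higher and 20 lower, and groups did not overlap for 8 (22.9%, against 9.59% of all features), 7 of them higher in small-litter females and 1, H3c7, lower. H3c7 and H3c1 were each detected in 1 of 6 females. Of the 7, H3c1 encodes histone H3 and the others encode histone H2A. H2ac7 was at 9.14, 9.20 and 9.10 in small-litter females, against 8.70, 8.79 and 8.89 in control females (0.35 ± 0.13), and a second probe of it differed by 0.42, also without overlap. H2ac24 was at 9.48, 9.30 and 9.32 in small-litter females, against 8.96, 9.03 and 9.18 in control females (0.31 ± 0.11) and H2aj, a variant H2A, at 7.38, 7.31 and 7.58 in small-litter females, against 7.05, 6.85 and 7.22 in control females (0.38 ± 0.12). H2ac15, H2ac22 and H2ac20 were at 0.30 ± 0.13, 0.32 ± 0.17 and 0.16 ± 0.11. The clustered H2A genes are near-identical copies, so their probes may report the same transcripts and are not independent. Of 14 DNA methylation genes, 3 had groups that did not overlap (21.4%, against 9.59% of all features), all lower: Gadd45b, a stress gene tied to demethylation, at 5.92, 5.62 and 5.63 in small-litter females, against 5.94, 6.64 and 5.95 in control females, Gadd45a at -0.083 ± 0.087 and the methyl-CpG binding gene Mbd1 at 8.37, 8.33 and 8.31 in small-litter females, against 8.53, 8.54 and 8.53 in control females. The methyltransferase gene Dnmt1 differed by -0.13 ± 0.12 (interval -0.38 to 0.12). Of 26 imprinted genes, 21 were lower and 5 higher (19.2%, against 50.7% of all features). The median was -0.078, and it was -0.12 without control female 1, -0.060 without control female 3 and -0.054 without background correction. Groups did not overlap for 2 of the 26 (7.69%, against 9.59% of all features). The mean deviations were -0.11, -0.11 and 0.051 in small-litter females, against -0.012, 0.025 and 0.15 in control females. Cobl was at 7.68, 7.98 and 8.02 in small-litter females, against 8.20, 8.35 and 8.09 in control females. Peg10 was at 5.61, 5.65 and 6.43 in small-litter females, against 6.35, 6.30 and 6.43 in control females. Small-litter females 1 and 2 were low for Peg10 and small-litter female 3 was level with the controls.

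Activity and time of day were traced through immediate early and clock genes. Immediate early genes depended on control female 2, whose mean deviation was 0.40 against -0.28 and 0.10 in the other controls and -0.16, 0.0038 and -0.062 in small-litter females. Egr3 was at 6.18, 6.70 and 6.74 in small-litter females, against 6.42, 9.57 and 6.88 in control females and Fosb at 5.33, 5.75 and 5.97 in small-litter females, against 5.38, 7.12 and 6.21 in control females, and without control female 2 their changes were -0.11 and -0.11. Arc, a synaptic activity gene, was at 6.72, 7.08 and 7.22 in small-litter females, against 7.51, 7.25 and 7.28 in control females (-0.34 ± 0.17), lower in every small-litter mouse. The 17 clock genes had a median of -0.026 and overlapping groups for each, with Nr1d1, which encodes the repressor REV-ERB alpha, at 6.51, 6.14 and 5.99 in small-litter females, against 7.03, 6.49 and 6.07 in control females. Glucocorticoid response genes were higher for 15 of 23 (median 0.087), among them the metallothionein gene Mt2 at 0.28 ± 0.18. That median was 0.054 without small-litter female 1, 0.028 without small-litter female 3 and -0.0076 without control female 1.

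Whether the difference seen in females departed from that in males was tested as an interaction, the change in females minus the change in males. By limma 0 of 13547 features passed (0% called), 1321 had an unadjusted p under 0.05 (9.75% called), and the smallest adjusted p was 0.404. In males the groups did not overlap for 2011 features (14.8% called), against 1299 in females. They were apart in both sexes and in the same direction for 62 features (0.458% called) and in opposite directions for 136 (1% called). The female and male comparisons share no mice; across features their changes had a correlation of -0.12, a description over features that share one normalization. Among the genes with the smallest p of the interaction, Mob1b, a Hippo pathway adaptor, was detected in no control female and in no small-litter male. Its mean was at least 1.03-fold higher in small-litter than in control females, but the groups overlapped and 2 of 3 small-litter females detected it. In males it was at least 1.24-fold lower in small-litter than in control mice. Frmpd1 differed by 0.32 ± 0.15 in females and -0.66 ± 0.15 in males, and the prostaglandin transporter gene Slco2a1 by 0.29 ± 0.11 and -0.43 ± 0.11 in the same order. The signs were opposite in the sexes for each, which the choice by interaction p favours. Zbtb22 and Intu also belonged to this set, with male changes of -0.16 ± 0.094 and -0.17 ± 0.10, as did H2-Q1, a class I histocompatibility gene. H2-Q1 was detected in 1 of 6 females, so no fold is given for them, and was at least 1.11-fold lower in small-litter than in control males. On the other side, Lbp, at least 1.43-fold lower in small-litter females, differed by 0.31 ± 0.17 in males, where every array detected it. Elfn1, a synaptic adhesion gene, differed by -0.34 ± 0.12 and 0.47 ± 0.12, the tRNA deaminase gene Adat1 by -0.31 ± 0.14 and 0.61 ± 0.14, and Tmem176a by -0.26 ± 0.14 and 0.66 ± 0.14, each in females and males in that order. The zinc finger gene Zfp329, detected in no small-litter female and no control male, was at least 1.18-fold lower in small-litter than in control females and at least 1.12-fold higher in small-litter than in control males. Fmo5, a monooxygenase, was detected in 1 of 6 females, so no fold is given for them, and was at least 1.41-fold higher in small-litter than in control males. Without male small litter 1 the interaction passed for 190 features, and without male control 3 for 1, so its count of 0 depended on these mice. Among the gene groups, the median of the glucocorticoid response genes was 0.087 in females and -0.32 in males, and that of the thalamus markers 0.21 and -0.039. Male control 3 had a mean deviation, taken over the males, of 0.46 for the glucocorticoid genes, against 0.10 and -0.058 in the other male controls. Other groups had the same sign in both sexes, such as gonadal steroid action (-0.17 and -0.088) and the respiratory chain (0.038 and 0.061). No list was tested.

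**Figure D5:**
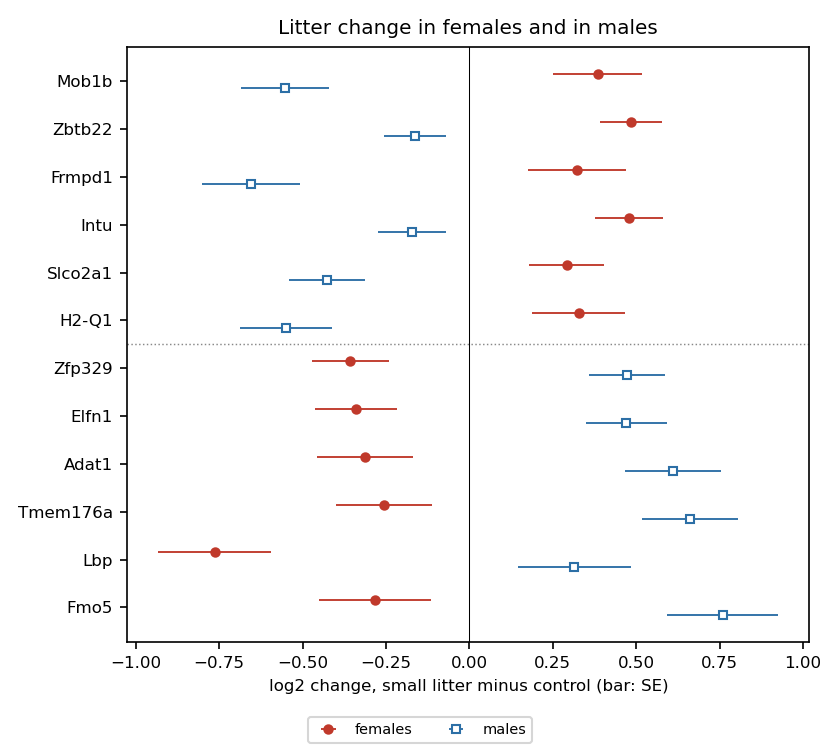
Log2 change (small litter minus control, n = 3 mice per group) with its standard error in females (filled circles) and males (open squares) for the 12 named genes with the smallest p of the interaction, 6 with the higher change in females above the dotted line and 6 with the lower change below it. The plotted changes have opposite signs in each of the 12, which the choice by interaction p favours. Mob1b, H2-Q1, Lbp, Zfp329 and Fmo5 were under the detection limit on every array of a group, and no interaction passed the adjusted threshold.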

How the data were processed

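RNA of hypothalamus from 12 mice was hybridised to Illumina mouse bead arrays, 1 array a mouse. The deposited table of raw bead intensity, one value and one detection p-value per probe and array, was used for all main values; its depth is set by the number of arrays. The authors also deposited log2 values, processed with lumi per the submitters' processing notes, which served as an alternative; the sources used here do not give its settings. Intensities were background-corrected with normexp from the detection p-values (offset 16), quantile-normalized over the 12 arrays and put on the log2 scale (limma 3.58.1, R 4.3.3). Probes detected at p under 0.01 on at least 3 arrays were kept, 19704 of 45281, and the probe with the highest mean stood for a gene, leaving 13547 features, of which 10912 carry a gene symbol and 2635 are unnamed. One limma model with 4 group means was fitted over the 12 arrays, and Benjamini-Hochberg adjustment (threshold 0.05) ran over all features. The fit was tested on simulated data.

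Named genes are, in each direction, the 12 with the smallest p and the 8 with the largest change among genes whose groups do not overlap and which were detected on all arrays of a female group; up to 4 members of each list by smallest p; the genes of energy balance and neurosecretion named throughout; and 6 genes in each direction for the interaction. Gadd45a, Gfap, H2ac15, H2ac20, H2ac22, H3c7, Dlx6, Mia, Msx1, Ogn, Pik3ca, Slc13a4, Ttr, Uqcr11, Vcam1 and Zmat4 were named after their values were seen. The members and lists were chosen with earlier results of these data known. Replicate numbers did not pair the mice: deviations of same-numbered mice correlated at 0.017, -0.020 and 0.042. Gene symbols come from the platform annotation, updated through RefSeq.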

Additional observations from a re-analysis of the deposited data

Results flagged for a closer look

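For 13 of the genes named, the small-litter and control groups did not overlap in females nor in males, and the direction was opposite in the sexes. The values are the log2 change in females minus that in males. They were positive for Frmpd1 (0.98), Mfsd4a (0.77), Slco2a1 (0.72), Hdac9 (0.68), Zbtb22 (0.65) and 2810029C07Rik (0.62). They were negative for Adat1 (-0.92), Arc (-0.87), Zfp329 (-0.83), Elfn1 (-0.81), Grik5 (-0.73), Vegfc (-0.65) and Fads2 (-0.44). The interaction itself was tested with limma, and the adjusted p passed for none of them. Over all features 136 showed such opposite separation, 1% of those tested. The genes named were chosen partly by non-overlap in females or by a small interaction p, which favours such separation. Their count is therefore not comparable with that share. Zfp329 was under the detection limit in all small-litter females and all control males, so its value is no measured size. Other genes named were apart in both sexes in the same direction. Among these, Socs3 and Col8a1 were lower in small-litter mice of both sexes, and Gm5820, H2aj, H3c1 and Ndufs6 were higher. Over all features 62 showed such shared separation (0.458%).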

How the results depend on the processing

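The count of features past the adjusted threshold between small-litter and control females was 0 under every alternative run that kept all 6 female and 6 male arrays and with the female arrays alone, including the fit with the replicate number as a block and the authors' processed values; leaving out 1 array gave 0 to 1. The unadjusted p was under 0.05 for 342 to 1514 features across settings, against 453. The number of features whose groups did not overlap was 3857 with no detection filter, where 38642 features were tested, and 1299 to 2939 with 1 array left out, since fewer mice overlap less often by construction. With the replicate block it was 1299, with 0 calls, 436 unadjusted p under 0.05 and 0 calls for the interaction; the block changed no call, and the numbers do not pair the mice. The interaction passed for 0 to 190 features with 1 array left out. Of the 138 named genes tried, 125 kept their sign under every alternative. The rest turned sign only with an array left out, with ranges of -0.17 to 0.074 for Kiss1, -0.036 to 0.42 for Nr3c1, -0.24 to 0.16 for Trh, -0.13 to 0.19 for Cartpt, -0.29 to 0.067 for Xist, -0.41 to 1.62 for Prl, -0.17 to 0.070 for Ghrh, -0.025 to 0.22 for Ghsr, -0.21 to 0.036 for Mc3r, -0.11 to 0.50 for Avp, -0.21 to 0.61 for Oxt, -1.30 to 0.048 for Ogn and -1.06 to 0.27 for Slc13a4; the cause was not tested. Median scaling moved the median of all features to -0.066. Without background correction 84 of the 138 genes shrank by more than 1.5 times, so the sizes of dim genes rest on that step.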
